A study of Mus musculus with 10 samples.

Results

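The circadian clock genes described here are 10 rows of a gene-level RNA-seq table of mouse pancreatic islets, found by symbol: Clock, Bmal1 (also called Arntl), Per1, Per2, Per3, Cry1, Cry2, Nr1d1, Nr1d2 and Dbp. They are 10 of 52178 genes in the table, and all 10 were among the 15298 genes with enough reads to be tested. The table holds 5 libraries from exercised mice (exercise 6 to 10) and 5 from sedentary mice (sedentary 1 to 5). All mice were male C57Bl/6 retired breeders, with no genotype or other treatment given, and their ages are not stated in the labels. Exercised mice had 3 days of acclimatization and then ran on a treadmill at 17 cm/s on a 5 degree incline, 1 hour a day and 5 days a week, for a total of 2 weeks. Sedentary mice served as the comparison. In both groups collagenase was infused through the pancreatic duct, islets were picked by hand and put in culture medium with 11 mM glucose, and stranded mRNA libraries were made from their RNA. The labels do not state the hour of the last run, the hour of islet isolation or the time in medium, so exercise and any difference in clock time between the groups cannot be told apart. Nothing says that each library came from a separate mouse, so p-values measure the spread between these libraries.

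The clock is a loop of transcription and repression that nearly every mammalian cell runs over a day. CLOCK and BMAL1 bind E-box elements as a pair and switch on the Per and Cry genes, whose proteins then return to the nucleus and silence the pair. A second loop runs through NR1D1 and NR1D2 (REV-ERB alpha and beta), which repress Bmal1, while DBP carries the rhythm to output genes through D-box elements. In islets the clock is known for its role in insulin secretion, which fails when Bmal1 is deleted from mouse beta cells.

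The labelled tissue was checked against marker genes before the clock genes were read. Markers of beta cells, 6 genes with both insulins among them, took 8.06% to 16.1% of counts in exercise libraries and 0.783% to 21.2% in sedentary libraries. Sedentary 1 and 2 stood apart, with 0.783% and 3.72% against 14.9% to 21.2% in sedentary 3 to 5. The 12 markers of small intestinal epithelium took 0.0165% to 0.0699% in exercise libraries. In sedentary libraries 1 to 5 they took 1.17%, 1.77%, 0.395%, 0.292% and 0.383%, and all 12 fell with exercise. Among them Cdx1 had 0 counts in 1 exercise library. The 11 acinar markers, genes of the enzyme-making cells around the islets, took 19.2%, 15.7%, 15.7%, 25.7% and 14.7% in exercise 6 to 10 and 13.01%, 6.34%, 10.4%, 10.3% and 7.33% in sedentary 1 to 5, and 6 of the 11 rose while none fell. Over all genes tested 2.44% rose and 11.4% fell. The 5 alpha cell markers took 0.274% to 0.483% in exercise libraries and 0.0443% to 1.77% in sedentary libraries, with 0.636% to 1.77% in sedentary 3 to 5. Their median log2 fold change was -0.15, or -0.67 without sedentary 1 and 2. The 2 delta cell markers took 0.0823% to 0.168% in exercise libraries and 0.151% to 0.298% in sedentary 3 to 5. No marker of alpha cells, delta cells, macrophages or endothelium passed the test, with or without sedentary 1 and 2. Clock gene levels, fold changes and ratios are therefore given with all 10 libraries and with the 8 left without sedentary 1 and 2, a set chosen with these values known. In bulk RNA, fewer cells of a type and less RNA per cell cannot be told apart. Library totals lay between 15081768 and 23222563 counts.

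Of the 10 clock genes, 1 fell with exercise, none rose and 9 did not pass the test (edgeR's quasi-likelihood test, Benjamini-Hochberg adjustment over 15298 genes, threshold 0.05). The gene that fell was Nr1d1. An unadjusted p under 0.05 was found for 5 of the 10, beside 5105 of the 15298 genes tested. Over all genes tested, 13.9% were called, 2.44% higher and 11.4% lower, so a count of 1 in 10 was near the background. The median log2 fold change of the 10 was 0.31, beside -0.00072 over all genes tested. Other fits to the 10 libraries called 3 clock genes, all lower, with library totals (29.9% of all genes called), 3 with DESeq2 (20% called) and 1 with limma-voom (3.37% called). With 8 libraries 1 clock gene rose (Cry2) and 2 fell (Nr1d1 and Dbp), beside 12.8% called over all genes, 4.1% higher and 8.68% lower. In that fit the median log2 fold change was 0.16 over the 10 genes and 0.0259 over all genes. Values of the exercise and sedentary groups did not overlap for 3 of the 10 genes (Per1 and Cry2 higher in exercise, Nr1d1 lower), against 17.6% of all genes, 6.24% higher and 11.4% lower. With 8 libraries they did not overlap for 4 of the 10, Dbp joining as the second lower gene, against 20.9% of all genes, 9.56% higher and 11.3% lower.

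**Figure D1:**
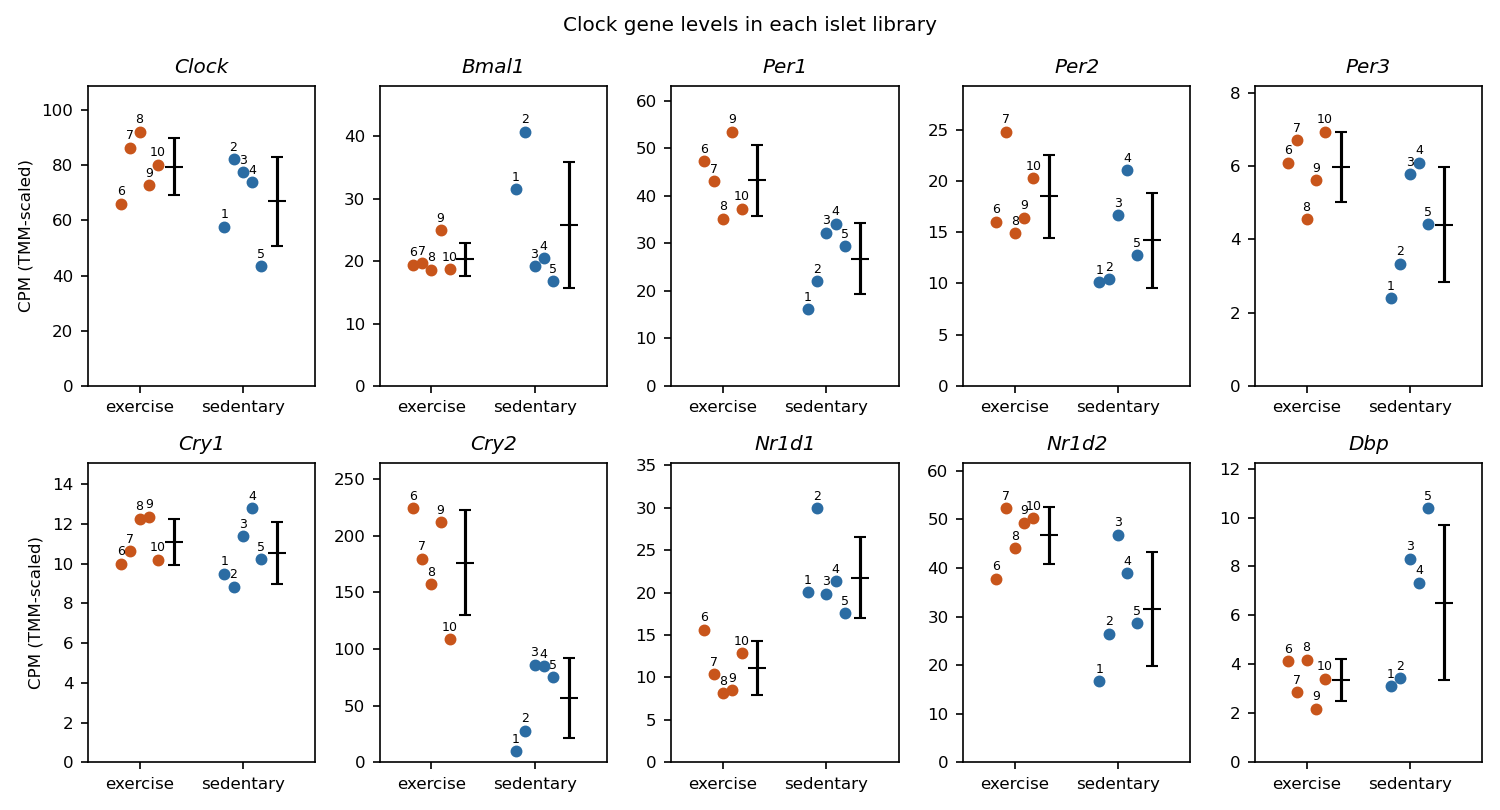
CPM (counts scaled to a common library size by TMM library factors) of the 10 clock genes, 1 panel a gene, with exercise libraries 6 to 10 left of sedentary libraries 1 to 5; each point is a library and carries its number, and bars are the mean and SD of 5. Nr1d1 lies at 8.17 to 15.6 in exercise libraries and 17.6 to 29.9 in sedentary libraries, while Per1 and Cry2 lie higher in every exercise library than in any sedentary one.

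Promoter sequence is printed for the genes whose groups did not overlap and for those with a clock element in the window searched, because these elements are what the clock proteins bind. The window ran from 250 bases before to 50 bases after each RefSeq start site on GRCm38.p6. Of the 10 genes 9 had at least 1, with 13 windows in all. Per2 had no window and was not searched. Motifs searched on both strands were the E-box CACGTG, the E'-box CACGTT, the D-box TTATGTAA or TTACGTAA, the ROR element core TAGGTCA or TGGGTCA, the cAMP element TGACGTCA and the palindromic glucocorticoid response element. Capitals in the runs below mark a match, with AACGTG being the E'-box read on the other strand, and every run is given 5′ to 3′ on the strand of its gene.
Nr1d1, chr11:98775378-98775627, minus strand: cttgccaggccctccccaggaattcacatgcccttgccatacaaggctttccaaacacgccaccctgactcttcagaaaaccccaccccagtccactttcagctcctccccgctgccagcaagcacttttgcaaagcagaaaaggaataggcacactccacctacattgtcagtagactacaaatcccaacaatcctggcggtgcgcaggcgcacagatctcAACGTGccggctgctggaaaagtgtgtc
Cry2, chr2:92434070-92434319, minus strand: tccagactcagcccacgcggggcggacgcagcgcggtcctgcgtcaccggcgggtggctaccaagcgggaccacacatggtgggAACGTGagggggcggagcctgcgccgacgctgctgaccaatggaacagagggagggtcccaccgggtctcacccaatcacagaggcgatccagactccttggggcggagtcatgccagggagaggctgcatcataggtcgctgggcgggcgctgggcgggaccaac
Per1, chr11:69098699-69098948, plus strand: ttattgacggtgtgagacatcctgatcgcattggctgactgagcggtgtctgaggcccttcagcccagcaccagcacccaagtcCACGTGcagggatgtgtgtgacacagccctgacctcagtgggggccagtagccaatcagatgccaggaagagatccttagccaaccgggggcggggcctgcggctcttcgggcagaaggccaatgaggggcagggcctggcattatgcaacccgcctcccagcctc
Cry1, chr10:85185055-85185284, minus strand: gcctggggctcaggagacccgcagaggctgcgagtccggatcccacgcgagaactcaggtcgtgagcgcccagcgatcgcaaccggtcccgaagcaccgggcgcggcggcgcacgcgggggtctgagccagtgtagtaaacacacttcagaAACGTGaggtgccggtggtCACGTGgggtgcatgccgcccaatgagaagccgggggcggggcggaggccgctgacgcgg
Per3, chr4:151044796-151044895, minus strand: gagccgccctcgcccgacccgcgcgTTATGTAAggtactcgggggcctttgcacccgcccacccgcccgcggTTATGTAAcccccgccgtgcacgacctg
Bmal1, chr7:113207529-113207558, plus strand: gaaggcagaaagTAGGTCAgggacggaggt

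Some genes had more than 1 window, and each distance is from the start site of the window with the match. The E-box of Per1 began 166 bases before that site and the E-box of Cry1 60 bases before it. The Per1 window, chr11:69098699-69098998, lay inside the gene, whose first base in GENCODE M21 is 69095217. An E'-box began 28 bases before the start of Nr1d1, 166 before that of Cry2 and 79 before that of Cry1. Per3 held the D-box at 205 and at 158 bases before its start, and Bmal1 held a ROR element core from base 31 after its start, the class of site that the ROR receptors and NR1D proteins share. Over all 32817 windows of this length, the E-box was in 7.15%, the E'-box in 4.69%, either D-box in 1.05% and either ROR core in 6.46%. None of the motifs was found in the windows of Clock, Nr1d2 or Dbp, and neither the cAMP element (1.79% of all windows) nor the glucocorticoid element (0.0488%) was found in any clock gene window. These matches describe letters in a window and are not binding sites. The genes printed with a match did not move one way, since Nr1d1 fell while Cry2 and Per1 were higher in every exercise library.

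Levels of the genes were compared with each other as CPM per kilobase of exon. The length took in all annotated exons of a gene, whether or not islets use them, so the order of genes depends on the annotation. In exercise islets Cry2 led with 27.9 ± 7.30, ahead of Nr1d2 (8.64 ± 1.09), Per1 (7.68 ± 1.32), Clock (5.79 ± 0.757), Nr1d1 (3.61 ± 1.02), Cry1 (3.32 ± 0.341), Per2 (3.16 ± 0.694), Bmal1 (2.70 ± 0.350), Dbp (1.12 ± 0.286) and Per3 (0.622 ± 0.0994; SD, n = 5 each). Among neighbours in that order, the ranges over libraries did not overlap between Cry2 and Nr1d2, between Bmal1 and Dbp, and between Dbp and Per3, and the other neighbours overlapped. In sedentary islets Cry2 (9.01 ± 5.62) was followed by Nr1d1 (7.07 ± 1.55), Nr1d2 (5.82 ± 2.16), Clock (4.87 ± 1.17), Per1 (4.76 ± 1.34), Bmal1 (3.42 ± 1.34), Cry1 (3.16 ± 0.468), Per2 (2.43 ± 0.792), Dbp (2.18 ± 1.06) and Per3 (0.458 ± 0.164; SD, n = 5 each). Over sedentary 3 to 5 alone the means were 13.01 for Cry2, 7.05 for Nr1d2, 6.37 for Nr1d1, 5.67 for Per1, 4.73 for Clock, 3.43 for Cry1, 2.90 for Dbp, 2.87 for Per2, 2.50 for Bmal1 and 0.564 for Per3. Nr1d1 thus stood below Per1 and Clock in the exercise islets and above both in the sedentary islets, with or without sedentary 1 and 2. Against Nr1d2 its mean was lower in exercise islets and higher in sedentary islets, but not over sedentary 3 to 5. Cry2 ranged over libraries from 17.2 to 35.5 in exercise islets and from 1.57 to 13.7 in sedentary islets.

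**Figure D2:**
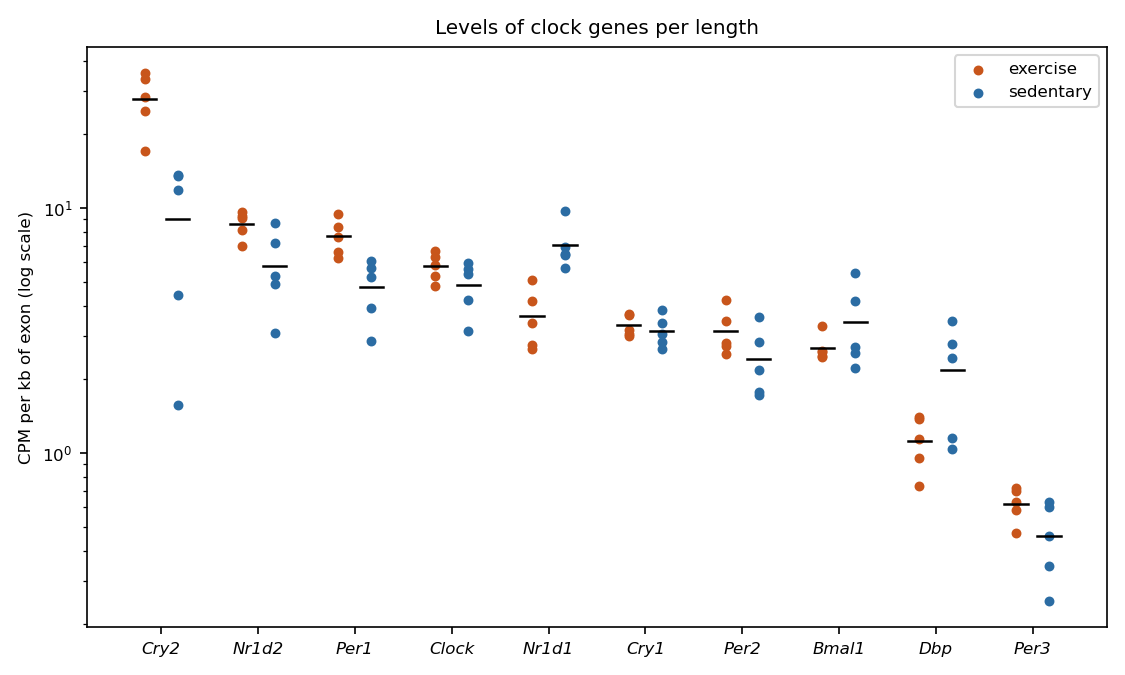
CPM per kilobase of exon (log axis) of the 10 clock genes, with exercise libraries beside sedentary libraries; points are libraries and bars the group means. Cry2 is the top gene of the exercise group at 17.2 to 35.5, and Per3 the lowest gene of both groups, at 0.473 to 0.722 in exercise and 0.249 to 0.634 in sedentary islets.

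The activators came first in the loop and neither passed the test. Clock, which encodes the DNA-binding partner of BMAL1, had 66.1 to 92.1 CPM in exercise libraries and 43.3 to 82.2 CPM in sedentary libraries (79.5 ± 10.4 and 66.9 ± 16.1; SD, n = 5 each). Its log2 fold change was 0.25 ± 0.18 (SE; 95% interval -0.16 to 0.66; edgeR adjusted p 0.344), and 0.32 ± 0.19 with 8 libraries (adjusted p 0.307). Bmal1, the partner without which the loop stops in mice, had 19.4, 19.7, 18.6, 24.9 and 18.7 CPM in exercise 6 to 10. In sedentary 1 to 5 it had 31.5, 40.7, 19.2, 20.5 and 16.8 CPM. Sedentary 1 and 2 were its highest libraries, and the other 8 lay between 16.8 and 24.9 CPM. The log2 fold change of Bmal1 was -0.34 ± 0.24 (95% interval -0.88 to 0.20; edgeR adjusted p 0.324) with all libraries and 0.13 ± 0.12 (-0.14 to 0.41; adjusted p 0.519) without sedentary 1 and 2, so its direction rested on those libraries.

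Per1, the Per gene known to respond fastest to hormones and cAMP, was higher in every exercise library than in any sedentary one. It had 47.3, 43.1, 35.2, 53.5 and 37.3 CPM in exercise 6 to 10, against 16.1, 22.1, 32.2, 34.1 and 29.4 CPM in sedentary 1 to 5. The lowest exercise library and the highest sedentary library lay close together, at 35.2 and 34.1 CPM. The log2 fold change was 0.69 ± 0.21 (SE; 95% interval 0.22 to 1.16), which is 1.61-fold, and it missed the threshold (edgeR p 0.00841, adjusted p 0.0557). With 8 libraries it was 0.46 ± 0.14 (0.15 to 0.77; adjusted p 0.0581). Over the fits that left out 1 library it ran from 0.55 to 0.80 with adjusted p between 0.0311 and 0.119, and it passed only without sedentary 4. Acinar markers were highest in exercise 9 and 6, the same libraries in which Per1 was highest. Among sedentary libraries their share was highest in sedentary 1, at 13.01% of counts, where Per1 was lowest. With the acinar level in the model the log2 fold change of Per1 was 0.41 (edgeR adjusted p 0.643). With the intestinal level instead it turned to -0.21 (edgeR adjusted p 0.900). In both fits the added level and exercise cannot be told apart.

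Per2 and Per3, which with Per1 make the repressor's PER side, showed overlapping groups. Per2 had 14.9 to 24.8 CPM in exercise libraries and 10.1 to 21.03 CPM in sedentary libraries (18.5 ± 4.07 and 14.2 ± 4.64; SD, n = 5 each). Its log2 fold change was 0.38 ± 0.24 (SE; 95% interval -0.15 to 0.90; edgeR adjusted p 0.272), and 0.16 ± 0.20 with 8 libraries. Per3, the lowest clock gene per kilobase, had 4.55 to 6.93 CPM in exercise libraries and 2.39 to 6.09 CPM in sedentary libraries. Its log2 fold change was 0.44 ± 0.27 (-0.15 to 1.03; edgeR adjusted p 0.262), and 0.17 ± 0.18 with 8 libraries. For all 3 Per genes sedentary 1 held the lowest value of the 10 libraries.

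The cryptochromes, partners of the PER proteins in repression, differed from each other. Cry2 had 224, 180, 158, 212 and 109 CPM in exercise 6 to 10, against 9.92, 28.0, 86.4, 85.1 and 75.2 CPM in sedentary 1 to 5. No library of one group reached the other, and sedentary 1 and 2 were far below the other sedentary libraries. The log2 fold change of Cry2 was 1.63 ± 0.51 (SE; 95% interval 0.50 to 2.76), which is 3.10-fold, with an edgeR adjusted p of 0.0574 that missed the threshold. Without sedentary 1 and 2 the spread was smaller and Cry2 rose, by a log2 fold change of 1.12 ± 0.21 (0.65 to 1.60; edgeR adjusted p 0.00775). It also passed in each of the 8 fits that left out 1 more library, with adjusted p between 0.00291 and 0.0408. Among the 10 libraries, Cry2 passed when sedentary 1 (log2 fold change 1.36, adjusted p 0.0396) or sedentary 4 (1.82, 0.0426) was left out. As with Per1, its highest values were in exercise 6 and 9, with acinar markers at 19.2% and 25.7% of counts. Among sedentary libraries the acinar share was highest in sedentary 1, at 13.01%, where Cry2 was lowest. The intestinal share was highest in sedentary 1 and 2, at 1.17% and 1.77%, where Cry2 was lowest too. Neither level can be told apart from exercise in these libraries, and the part of cell makeup in Cry2 was not tested.

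Cry1 had overlapping groups, with 10.0 to 12.4 CPM in exercise libraries and 8.85 to 12.8 CPM in sedentary libraries (11.1 ± 1.14 and 10.5 ± 1.56; SD, n = 5 each). Its log2 fold change was 0.07 ± 0.15 (SE; 95% interval -0.26 to 0.40; edgeR adjusted p 0.736), and -0.02 ± 0.13 (-0.30 to 0.26) with 8 libraries. The interval of Cry1 with 8 libraries lay wholly below that of Cry2 in the same fit.

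Nr1d1, whose product represses Bmal1, was the clock gene that fell. It had 15.6, 10.4, 8.17, 8.50 and 12.8 CPM in exercise 6 to 10, against 20.02, 29.9, 19.9, 21.3 and 17.6 CPM in sedentary 1 to 5. Every exercise library was below every sedentary library, and here sedentary 1 was not apart from sedentary 3 to 5. The means were 11.1 ± 3.14 CPM in exercise and 21.7 ± 4.77 CPM in sedentary islets (SD, n = 5 each), and the log2 fold change was -0.97 ± 0.22 (SE; 95% interval -1.45 to -0.48; edgeR adjusted p 0.0190). With 8 libraries it was -0.79 ± 0.20 (-1.24 to -0.34; edgeR adjusted p 0.0313). The estimate kept its sign when any 1 of the 10 libraries was left out, between -1.12 and -0.83, but the call was lost without exercise 7, 8 or 9, with adjusted p of 0.0557, 0.0537 and 0.0575. Of the 8 fits that left out 1 library from the 8, the call passed in 2, with an adjusted p of up to 0.0938.

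The Nr1d1 gene lies on the minus strand at chr11:98767932-98775333 (GENCODE M21 on GRCm38) and its 3′ exons overlap those of Thra, a thyroid hormone receptor gene on the other strand, over 263 of 3077 exonic bases. The library kit keeps strand, but whether the counting used it is not stated in the labels, so some reads of one gene could have been given to the other. Thra averaged 28.8 ± 1.47 CPM in exercise and 43.7 ± 14.8 CPM in sedentary islets (SD, n = 5 each), with a log2 fold change of -0.60 that did not pass (edgeR adjusted p 0.0696). In the fit with 8 libraries the log2 fold change of Thra was -0.25, against -0.79 for Nr1d1.

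Nr1d2, the paralog of Nr1d1, had 37.8, 52.3, 44.0, 49.3 and 50.3 CPM in exercise 6 to 10 and 16.7, 26.5, 46.9, 38.9 and 28.6 CPM in sedentary 1 to 5. The groups overlapped through sedentary 3 and 4. Its log2 fold change was 0.57 ± 0.24 (SE; 95% interval 0.03 to 1.11; edgeR adjusted p 0.136), and 0.32 ± 0.17 (-0.05 to 0.69; adjusted p 0.244) with 8 libraries. In the fit with all libraries the interval of Nr1d2 lay above 0 and that of Nr1d1 below 0.

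Dbp, the output factor that binds D-boxes and is among the most rhythmic transcripts of mouse tissues, did not pass with 10 libraries and fell with 8. It had 4.13, 2.86, 4.20, 2.19 and 3.42 CPM in exercise 6 to 10, against 3.11, 3.44, 8.32, 7.34 and 10.4 CPM in sedentary 1 to 5. Sedentary 1 and 2 lay within the exercise range, and sedentary 3 to 5 lay above it. The log2 fold change was -0.95 ± 0.36 (SE; 95% interval -1.75 to -0.15; edgeR adjusted p 0.0994) with all 10 libraries. With 8 libraries it fell, by a log2 fold change of -1.34 ± 0.22 (-1.84 to -0.84; edgeR adjusted p 0.00424), and the call held in each of 8 fits that left out 1 more library, with adjusted p between 0.00466 and 0.0248. These values rest on 34 to 74 counts in exercise libraries and 52 to 212 in sedentary libraries. Dbp shares 539 of 2993 exonic bases with Sphk2, a sphingosine kinase gene on the other strand. Sphk2 fell too, with 27.0 ± 2.02 CPM in exercise and 50.2 ± 21.9 CPM in sedentary islets (SD, n = 5 each) and a log2 fold change of -0.90 (edgeR adjusted p 0.0386). With 8 libraries the log2 fold change of Sphk2 was -0.42 (adjusted p 0.0179), against -1.34 for Dbp.

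**Figure D3:**
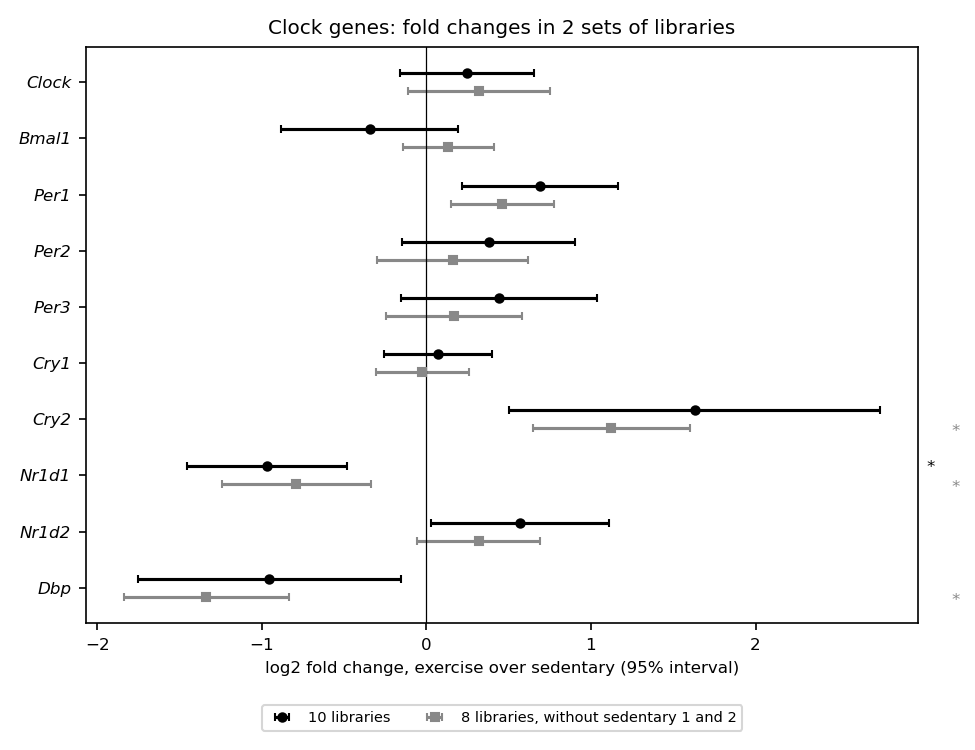
Log2 fold change, exercise over sedentary, of the 10 clock genes with 95% intervals, in black for 10 libraries and in grey for 8; a star marks an adjusted p under 0.05 in that fit. Nr1d1 is starred in both fits at -0.97 and -0.79, and Cry2 (1.12) and Dbp (-1.34) are starred with 8 libraries.

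Levels of the acinar and intestinal markers moved with exercise in these libraries. When the mean log2 CPM of the 11 acinar markers was added to the model the log2 fold change was -0.71 for Nr1d1 (edgeR adjusted p 0.553), 1.26 for Cry2 (adjusted p 0.620) and -0.40 for Dbp (adjusted p 0.751). With that of the 12 intestinal markers added instead, it was -0.17 for Nr1d1 (edgeR adjusted p 0.927), -0.27 for Cry2 (adjusted p 0.953) and -1.75 for Dbp (adjusted p 0.883). No gene of the whole table passed in either of these fits, against 2119 of 15298 without the covariate. At an unadjusted p under 0.05 there were 1618 genes with the acinar and 263 with the intestinal level, against 5105 without. The squared correlation with group membership was 0.643 for the acinar level and 0.804 for the intestinal level, so exercise and either level cannot be told apart in these 10 libraries.

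Ratios within a library do not depend on how libraries are scaled, and Bmal1 was used as the common denominator. The log2 ratio of Cry2 to Bmal1 was 3.53, 3.19, 3.08, 3.09 and 2.54 in exercise 6 to 10, against -1.67, -0.54, 2.17, 2.06 and 2.16 in sedentary 1 to 5. The log2 ratio of Per1 to Bmal1 was 1.28, 1.13, 0.92, 1.10 and 0.99 in exercise 6 to 10, against -0.96, -0.88, 0.75, 0.74 and 0.81 in sedentary 1 to 5. These were the ratios whose groups did not overlap, and the gap between them was narrow for Per1. Without sedentary 1 and 2 the mean difference was 0.95 for Cry2 and 0.32 for Per1, against 2.25 and 1.00 with all libraries. The ratio of Nr1d1 to Bmal1 was -0.31, -0.92, -1.19, -1.55 and -0.54 in exercise 6 to 10, against -0.65, -0.44, 0.05, 0.06 and 0.07 in sedentary 1 to 5. Sedentary 1 and 2, which had the highest Bmal1, lay within the exercise range, while sedentary 3 to 5 lay above every exercise library. The mean difference was -0.72, or -0.96 without sedentary 1 and 2. The ratio of Dbp to Bmal1 was -2.23, -2.78, -2.15, -3.51 and -2.45 in exercise 6 to 10, against -3.34, -3.57, -1.21, -1.48 and -0.69 in sedentary 1 to 5. Here sedentary 1 lay within and sedentary 2 below the exercise range, and sedentary 3 to 5 above it, with a mean difference of -0.57, or -1.50 without sedentary 1 and 2. For Per2, Per3, Cry1 and Nr1d2 the groups overlapped, with mean differences of 0.68, 0.78, 0.35 and 0.91. Without sedentary 1 and 2 these were 0.034 for Per2, 0.034 for Per3, -0.15 for Cry1 and 0.21 for Nr1d2, so that they rested largely on those libraries.

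**Figure D4:**
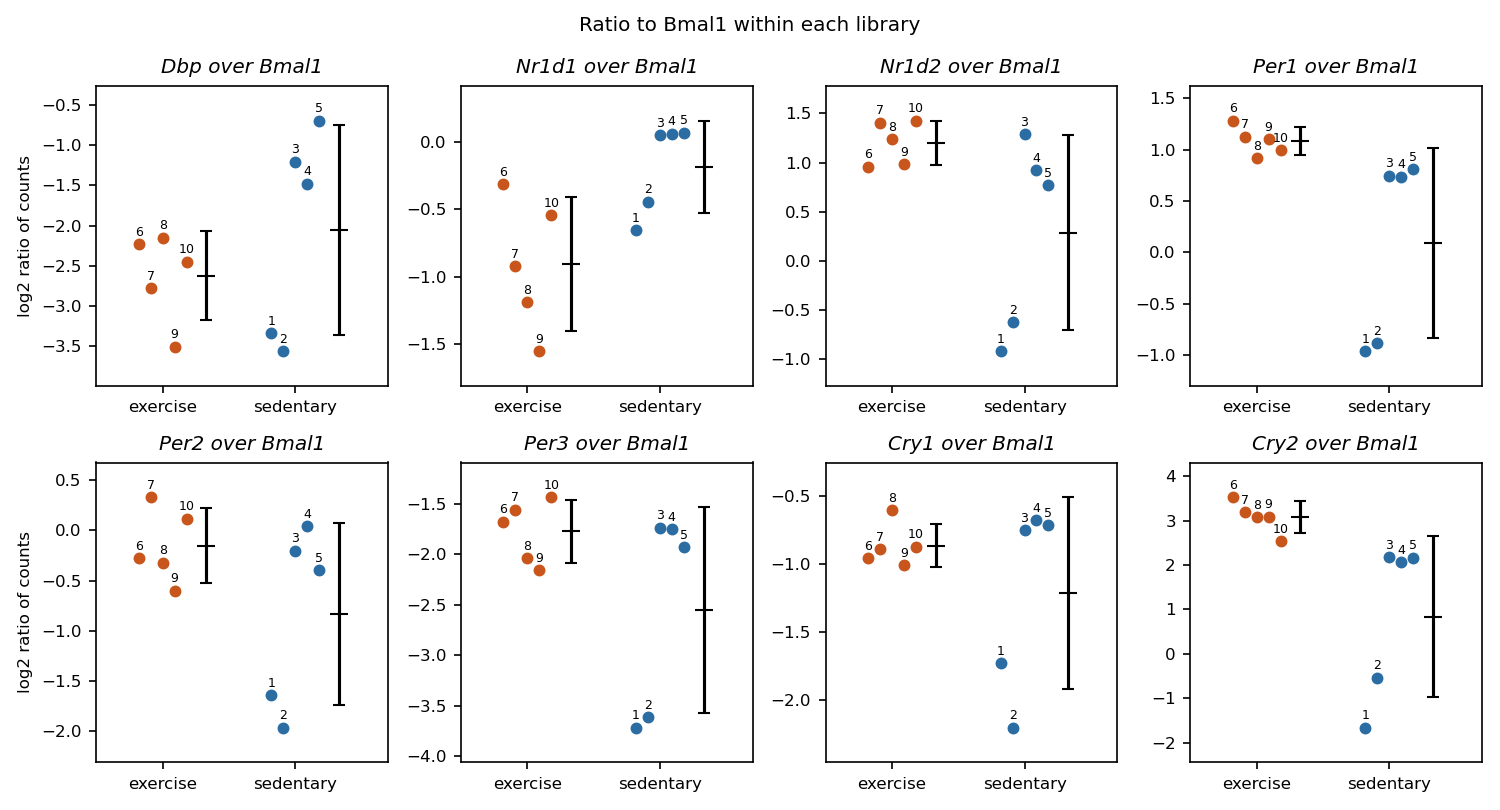
Log2 ratio of each of 8 clock genes to Bmal1 within a library, exercise libraries 6 to 10 left of sedentary libraries 1 to 5. In every panel sedentary 1 and 2 lie below sedentary 3 to 5, and only for Cry2 and Per1 do all exercise libraries lie above all sedentary ones.

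Of 24 other clock-related genes in 5 lists, 23 were tested, 1 rose, none fell and 22 did not pass, beside 2.44% higher and 11.4% lower over all genes. An unadjusted p under 0.05 was found for 6 of the 23, beside 5105 of the 15298 genes tested. The median log2 fold change of the 23 was 0.09. The one that rose was Csnk1e, which encodes casein kinase 1 epsilon, a kinase that marks PER proteins for breakdown. It had 20.2, 20.7, 20.1, 23.4 and 20.7 CPM in exercise 6 to 10, against 8.07, 7.48, 14.6, 14.9 and 15.7 CPM in sedentary 1 to 5. The groups did not overlap, sedentary 1 and 2 were lowest, and the log2 fold change was 0.79 ± 0.22 (SE; edgeR adjusted p 0.0422). With 8 libraries it was 0.51 ± 0.09 (adjusted p 0.00640). The call was lost without any one of the 5 exercise libraries and without sedentary 1 or 2, with an adjusted p of up to 0.0937. With 8 libraries, 2 of the 23 rose (Csnk1e and Noct), 1 fell (Hlf) and the median was 0.13, beside 12.8% called over all genes. The groups of 10 libraries did not overlap for 4 of the 23, against 17.6% of all genes: Csnk1e, Rora, Nampt and Btrc, a ubiquitin ligase subunit named here after its values were seen.

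The ROR receptors activate Bmal1 through the same elements that NR1D proteins use, and none of those tested passed with either set of libraries. Rora had 34.0, 46.9, 44.7, 44.4 and 35.5 CPM in exercise 6 to 10, against 7.77, 9.39, 29.8, 32.4 and 19.7 CPM in sedentary 1 to 5. Its groups did not overlap, yet its log2 fold change of 1.05 ± 0.37 missed the threshold (edgeR adjusted p 0.0846), as did that of 0.62 with 8 libraries (adjusted p 0.0504).

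None of the 3 bZIP factors passed with all libraries. Nfil3, which competes with DBP for D-boxes, averaged 30.2 ± 5.46 CPM in exercise and 21.4 ± 3.57 CPM in sedentary islets (SD, n = 5 each), with a log2 fold change of 0.50 (edgeR adjusted p 0.0745). Hlf, a relative of DBP, averaged 2.70 ± 0.386 CPM in exercise and 3.34 ± 1.29 CPM in sedentary islets, with a log2 fold change of -0.31 (adjusted p 0.449). With 8 libraries Hlf fell, by -0.63 ± 0.18 (edgeR adjusted p 0.0469), a call that held in 1 of 8 fits leaving out 1 more library. Dbp and Hlf had negative log2 fold changes in both fits, and Nfil3 positive ones.

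Among the 7 partners and repressors none passed. Timeless averaged 2.29 ± 0.402 CPM in exercise and 4.02 ± 1.63 CPM in sedentary islets (SD, n = 5 each), with a log2 fold change of -0.81 (edgeR adjusted p 0.0974). Ciart, a repressor of CLOCK and BMAL1, averaged 1.63 ± 0.407 CPM in exercise and 0.830 ± 0.487 CPM in sedentary islets, with a log2 fold change of 0.96 (adjusted p 0.154). Of the 8 modifiers of clock proteins, Csnk1e passed and Fbxl21, a ubiquitin ligase subunit acting on cryptochromes, followed with 2.45 ± 0.418 CPM in exercise and 1.69 ± 0.387 CPM in sedentary islets (log2 fold change 0.53, adjusted p 0.150).

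Of the 3 rhythmic output genes none passed with all libraries. Nampt, the rate-limiting enzyme of NAD salvage and a target of CLOCK and BMAL1, had 25.2 to 32.6 CPM in exercise libraries and 33.6 to 97.4 CPM in sedentary libraries. Its groups did not overlap, and its highest values were those of sedentary 1 and 2, 59.6 and 97.4 CPM. The log2 fold change of Nampt was -0.85 (edgeR adjusted p 0.0712), and -0.26 (adjusted p 0.126) with 8 libraries. Noct, which encodes a rhythmic phosphatase of nicotinamide dinucleotides, averaged 120 ± 15.04 CPM in exercise and 93.5 ± 18.5 CPM in sedentary islets (SD, n = 5 each), with a log2 fold change of 0.36 (edgeR adjusted p 0.152). With 8 libraries Noct rose, by 0.59 ± 0.13 (adjusted p 0.0147), and that call was lost without sedentary 5 (adjusted p 0.0621).

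**Figure D5:**
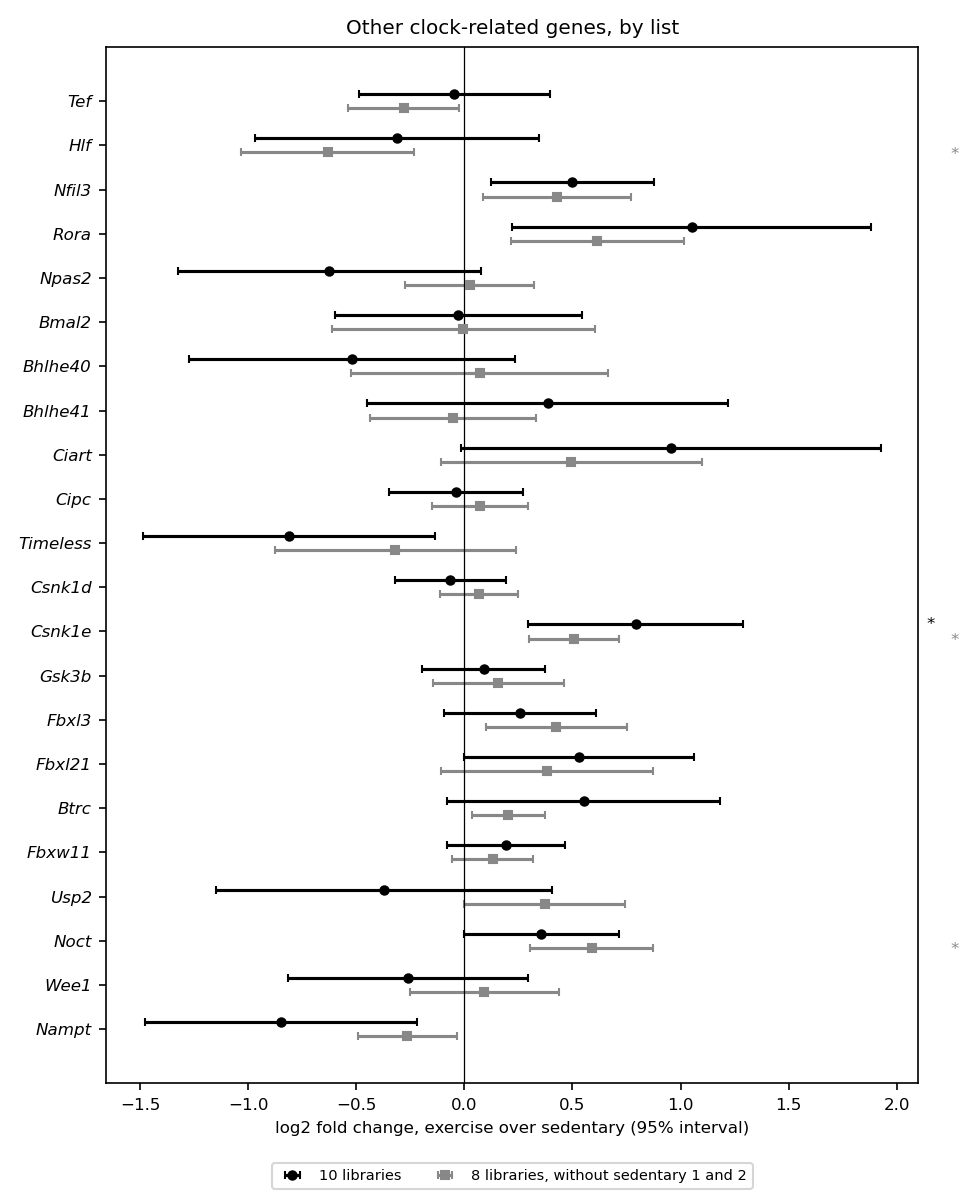
Log2 fold change, exercise over sedentary, with 95% intervals of 22 of the other clock-related genes in the order of their lists, in black for 10 libraries and in grey for 8; a star marks an adjusted p under 0.05 in that fit. Csnk1e is starred in both fits at 0.79 and 0.51, and Noct (0.59) and Hlf (-0.63) are starred with 8 libraries.

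Glucocorticoid-induced genes were counted beside Per1, which is itself known to be induced by these hormones. Of 8 tested, 5 rose, none fell and 3 did not pass, with a median log2 fold change of 1.71. Over all genes 2.44% were higher and 11.4% lower. Sgk1 did not pass and averaged 26.4 ± 12.9 CPM in exercise and 68.5 ± 38.5 CPM in sedentary islets (SD, n = 5 each). Its log2 fold change was -1.38 (edgeR adjusted p 0.0545), or -0.60 with 8 libraries (adjusted p 0.237). Tsc22d3, at -0.06 (edgeR adjusted p 0.858), and Dusp1, at 0.93 (adjusted p 0.129), did not pass either. With 8 libraries the number that rose was 5 as well, beside 4.1% higher. The list was drawn up with earlier results of these libraries known, so its count is not independent evidence of a direction. Fkbp5, a chaperone that binds the glucocorticoid receptor, averaged 197 ± 59.6 CPM in exercise and 40.6 ± 17.99 CPM in sedentary islets (SD, n = 5 each), with a log2 fold change of 2.28 (edgeR adjusted p 0.00900). Zbtb16, a transcription factor gene, averaged 16.7 ± 7.90 CPM in exercise and 0.661 ± 0.408 CPM in sedentary islets, with a log2 fold change of 4.63. Fam107a averaged 34.1 ± 16.9 CPM in exercise and 3.29 ± 1.78 CPM in sedentary islets, and Hif3a 2.75 ± 1.44 CPM in exercise and 0.356 ± 0.0842 CPM in sedentary islets. Klf9, a transcription factor gene, rose by a log2 fold change of 1.14 (edgeR adjusted p 0.0385), a call with an adjusted p of up to 0.0908 when 1 library was left out. Each of the 5 was highest in exercise 9, the library with the largest acinar share, at 289 CPM for Fkbp5, 30.1 for Zbtb16, 61.2 for Fam107a, 5.02 for Hif3a and 158 for Klf9. The number that rose was 4 without exercise 9, and also without exercise 6, 7 or 8 or without sedentary 1, 2 or 5. It was 0 with the acinar or the intestinal level in the model, fits in which no gene of the whole table passed. Per1, at a log2 fold change of 0.69, lay below the median of the list.

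For Dbp, Bmal1 and Per1 the genes of most similar pattern were sought over the 10 libraries, with group means taken off and 10716 genes ranked by Pearson correlation of log2 CPM. The points share library depth and cell makeup, and the values are given as a description. Nearest to Dbp were Hist3h2a (0.978), Rom1 (0.962) and Bmyc (0.961). Nearest to Bmal1 were Stradb (0.988), Pnrc2 (0.982) and Zbtb7b (0.981), and nearest to Per1 were Arhgef10l (0.992), Yrdc (0.966) and Galnt11 (0.965). The clock genes themselves were left out of the ranking, so none of these 9 could be one. Stradb fell with exercise (log2 fold change -0.78, edgeR adjusted p 0.0251), while Galnt11, at 57.6 ± 11.1 CPM in exercise and 21.7 ± 9.52 CPM in sedentary islets (SD, n = 5 each), rose by 1.41 (adjusted p 0.0162).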

How the data were processed

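RNA-seq of isolated mouse islets was measured in 10 libraries, 5 from exercised and 5 from sedentary mice. The deposited table holds the authors' estimated counts per Ensembl gene, made with fastp and kallisto per the submitters' processing notes. The labels do not state versions, genome build, annotation or strand setting. Values that were not whole made up 12.6% of the table (tolerance 1e-06), 14 of them in clock genes; all were rounded before testing. Library totals were 15081768 to 23222563 counts, and counts carry no molecular identifiers. No pair of libraries agreed within sampling noise (45 pairs, smallest chi-square per degree of freedom 9.59). Groups came from the labels, which give no batch.

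All genes were fitted in R 4.3.3 with edgeR 4.0.16 (quasi-likelihood test, TMM factors of 0.669 to 1.20, minimum count 10, minimum total 15), with Benjamini-Hochberg adjustment over 15298 genes and a threshold of 0.05. CPM, counts scaled to a library size after TMM, took a prior count of 2 on the log2 scale. The ratios printed are of counts with nothing added, and adding 0.5 counts was run as an alternative for the ratios to Bmal1. The script was tested on simulated data. Alternatives were RLE factors, library totals, upper quartile factors, no filter, DESeq2 1.42.0, limma-voom (limma 3.58.1), single libraries left out, sedentary 1 and 2 left out, and acinar or intestinal covariates. Exon lengths and overlaps come from GENCODE M21, promoters from RefSeq on GRCm38.p6. IDs were paired with symbols through the reference tables, which named 98.3% of expressed genes.

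The members and lists were chosen with earlier results of these data known. Genes named were all clock genes, every member of the other lists that passed with the 2 of smallest p in each list, and the 3 genes most like Dbp, Bmal1 and Per1 (mean of at least 5 CPM). Btrc and the genes that overlap a clock gene (Thra and Sphk2) were added after values were seen. So were the glucocorticoid-induced genes that did not pass (Sgk1, Tsc22d3 and Dusp1). One clock-related gene counted in the lists is not reported here.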

Additional observations from a re-analysis of the deposited data

Results flagged for a closer look

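Gene levels were screened within each group for a library far from the other 4. Of 68 groups of values, 4 held such a library, and chance gives about 1 in 20. All 4 were exercise 9, which had the highest acinar marker share, 25.7% of counts. Stradb and Bmyc were screened because they followed Bmal1 and Dbp over these same libraries, so the 4 are not independent of each other. Bmal1 had 24.9 CPM in exercise 9, against 18.6 to 19.7 CPM in the other exercise libraries. Without exercise 9 its log2 fold change was -0.37, against -0.34 with it. Csnk1e had 23.4 CPM there, against 20.1 to 20.7 CPM in the others, and its log2 fold change was 0.79 with and without exercise 9, although the adjusted p of edgeR was 0.0937 without it. Bmyc, a gene close to Dbp in pattern, had 10.2 CPM against 12.4 to 13.2 CPM in the others. Stradb, close to Bmal1 in pattern, had 8.05 CPM against 6.37 to 6.84 CPM.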

How the results depend on the processing

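Scaling by library totals moved the median of all genes by -0.34 and upper quartile factors by 0.11 (log2). Relative to that median with library totals, log2 fold changes were 0.27 for Clock, 0.06 for Cry1, -0.95 for Nr1d1, 1.56 for Cry2 and -0.95 for Dbp. The share of calls that were lower was 82.4% in the reported fit and 96.5% with library totals.

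Over all genes, 374 rose in the reported fit, against 159 with library totals, 977 with DESeq2, 177 with limma-voom, 644 without sedentary 1 and 2, 132 to 889 with 1 library left out and 0 with either covariate. The number that fell was 1745, against 4408 with library totals, 2867 with DESeq2, 339 with limma-voom, 800 to 2721 with 1 library left out and 0 with either covariate. Clock genes that rose numbered 0, against 1 with RLE factors (Per1), 2 with DESeq2 (Per1 and Cry2), 1 with 8 libraries and 0 to 2 with 1 library left out. Those that fell numbered 1, against 3 with library totals (Bmal1, Nr1d1 and Dbp), 2 with 8 libraries, 0 to 1 with 1 library left out and 0 with either covariate. Of the other clock-related genes 1 rose, against 0 with library totals, no filter, limma-voom or a covariate, 3 with DESeq2, 2 with 8 libraries and 0 to 2 with 1 library left out. None fell, against 4 with library totals, 1 with DESeq2, 1 with 8 libraries and 0 to 2 with 1 library left out. Of the glucocorticoid-induced genes 5 rose, against 4 to 5 with 1 library left out and 0 with either covariate, and none fell, against 1 with library totals, 1 with DESeq2 and 0 to 1 with 1 library left out.

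Log2 fold changes turned sign for Clock (-0.073) and Cry1 (-0.28) with library totals, for Bmal1 (0.13) and Cry1 (-0.023) with 8 libraries, and for Cry1 (-0.10) with the acinar level. With the intestinal level they turned for Bmal1 (0.54), Per1 (-0.21), Per2 (-0.60), Per3 (-0.44), Cry1 (-0.42), Cry2 (-0.27) and Nr1d2 (-0.37). The difference in the ratio to Bmal1 was 0.32 for Per1 and -0.15 for Cry1 with 8 libraries. Nr1d1 kept its negative sign in every alternative run. The cause of these shifts was not tested. No paired analysis was possible because the groups share no replicate numbers. Among the clock genes, Dbp rests on 34 to 212 and Per3 on 40 to 142 counts a library.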

Other observations

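Paralogs of the clock were set against each other within a library, a comparison chosen after the values were seen and given as a description. The log2 ratio of Nr1d1 to Nr1d2 was -1.27, -2.33, -2.43, -2.54 and -1.97 in exercise 6 to 10, against 0.26, 0.18, -1.24, -0.87 and -0.70 in sedentary 1 to 5. The groups did not overlap, although exercise 6 and sedentary 3 lay close together, and the mean difference was -1.63, or -1.17 without sedentary 1 and 2. The log2 ratio of Cry2 to Cry1 was 4.49, 4.08, 3.68, 4.10 and 3.41 in exercise 6 to 10, against 0.06, 1.66, 2.93, 2.74 and 2.88 in sedentary 1 to 5. Cry2 counts exceeded Cry1 counts in every library, and the mean difference of the log2 ratio was 1.90, or 1.11 without sedentary 1 and 2. These ratios depend on no library scaling, and the part of cell makeup in them was not tested.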
